A study of Mus musculus with 8 samples.

Results

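Genes of hypertrophic chondrocytes and their regulators are described here, 10 of the 55471 genes in the count table: Col10a1, Spp1, Ibsp, Runx2, Runx3, Mef2c, Foxa2, Foxa3, Dlx5 and Hdac4. They were picked by gene name, each name matched a single entry, and all 10 passed the filter on low counts. The counts come from bulk RNA sequencing of total RNA of cells sorted by flow cytometry out of neonatal femur, between day 3 and day 5 of life. The sorted populations, from Tet1 knockout (KO) and wild-type (WT) mice, were SSC, labelled as skeletal stem cells, and BCSP, labelled as bone cartilage stromal progenitors. They give 4 groups: KO SSC, WT SSC, KO BCSP and WT BCSP. Each group has 2 libraries, numbered round 1 and round 2 in the titles, and every library, WT included, carries the strain name B6;129S4-Tet1tm1.1Jae/J. The surface markers of the sort, the sex of the pups and whether animals were pooled are not given in the sources used here. Because nothing says that the libraries of a group came from separate animals, p-values measure only the spread between these libraries, which may be technical.

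Chondrocytes of the growth plate divide, enlarge and then become hypertrophic, and the hypertrophic zone is later replaced by bone. Hypertrophic cells make collagen X, and the latest of them also make osteopontin and bone sialoprotein, which bone cells secrete too. RUNX2 and RUNX3 drive the program together with MEF2C, the FOXA factors and DLX5, while HDAC4 holds it back by binding RUNX2 and MEF2C. Parathyroid hormone-related protein from resting cells delays the step, and Indian hedgehog from prehypertrophic cells feeds back on that delay.

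The libraries held 104782544 to 168004119 counts, with 22039 to 25782 genes detected in each. Cartilage transcripts were prominent in every library: Col2a1, the main collagen of cartilage, took 24.7 to 30.6% of the counts. Tet1, the targeted gene, stood at 7.26 to 11.97 CPM (a library's counts scaled to a common total) in the 4 KO libraries and at 10.98 to 21.6 CPM in the 4 WT libraries, which is lower in KO by a log2 fold change of -0.70 ± 0.23 (SE) without passing (edgeR adjusted p = 0.608). The Y-linked gene Ddx3y stood at 62.1 to 92.2 CPM in KO and at 23.2 to 39.7 CPM in WT libraries, so that a marker of male cells moved with genotype. Xist, a marker of female cells, stood at 75.0 to 291 CPM in KO and at 277 to 621 CPM in WT libraries, which overlap. Both genes were detected in every library, and the part of sex in the genotype results was not tested. Deviation of a library from the gene means followed exon length most in the BCSP libraries of round 2, at Spearman 0.357 in KO and -0.498 in WT across genes, and lay between -0.244 and 0.225 in the other 6. CPM values below are scaled by TMM factors, which correct for differences in library composition.

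Per length of exon, Col10a1 was the most abundant of the 10 genes and Hdac4 the least. Col10a1, which encodes collagen X, averaged 530 ± 367 TPM, a level per exon length with a common total (SD over the 8 libraries, n = 8) and ranked 231 among all genes. Spp1, which encodes osteopontin, followed at 254 ± 109 TPM, and the forkhead factor gene Foxa3 at 196 ± 33.2 TPM. Its relative Foxa2 stood lower, at 65.0 ± 29.8 TPM, beside Ibsp, which encodes bone sialoprotein, at 55.3 ± 34.4 TPM. The runt factor gene Runx3 averaged 40.1 ± 17.6 TPM, the homeobox gene Dlx5 36.9 ± 15.9 TPM and Runx2 34.1 ± 12.1 TPM. Mef2c, a MADS-box factor gene, averaged 17.7 ± 6.08 TPM and the histone deacetylase gene Hdac4 10.1 ± 2.24 TPM. Neighbours in this order differed by less than the larger of their SDs, except that Foxa3 stood above Foxa2, Runx2 above Mef2c and Mef2c above Hdac4 by more than the SD of either. Mef2c and Hdac4 have the longest summed exons, 15715 and 15813 bases, so isoforms that use only some of these exons are understated on this scale.

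**Figure D1:**
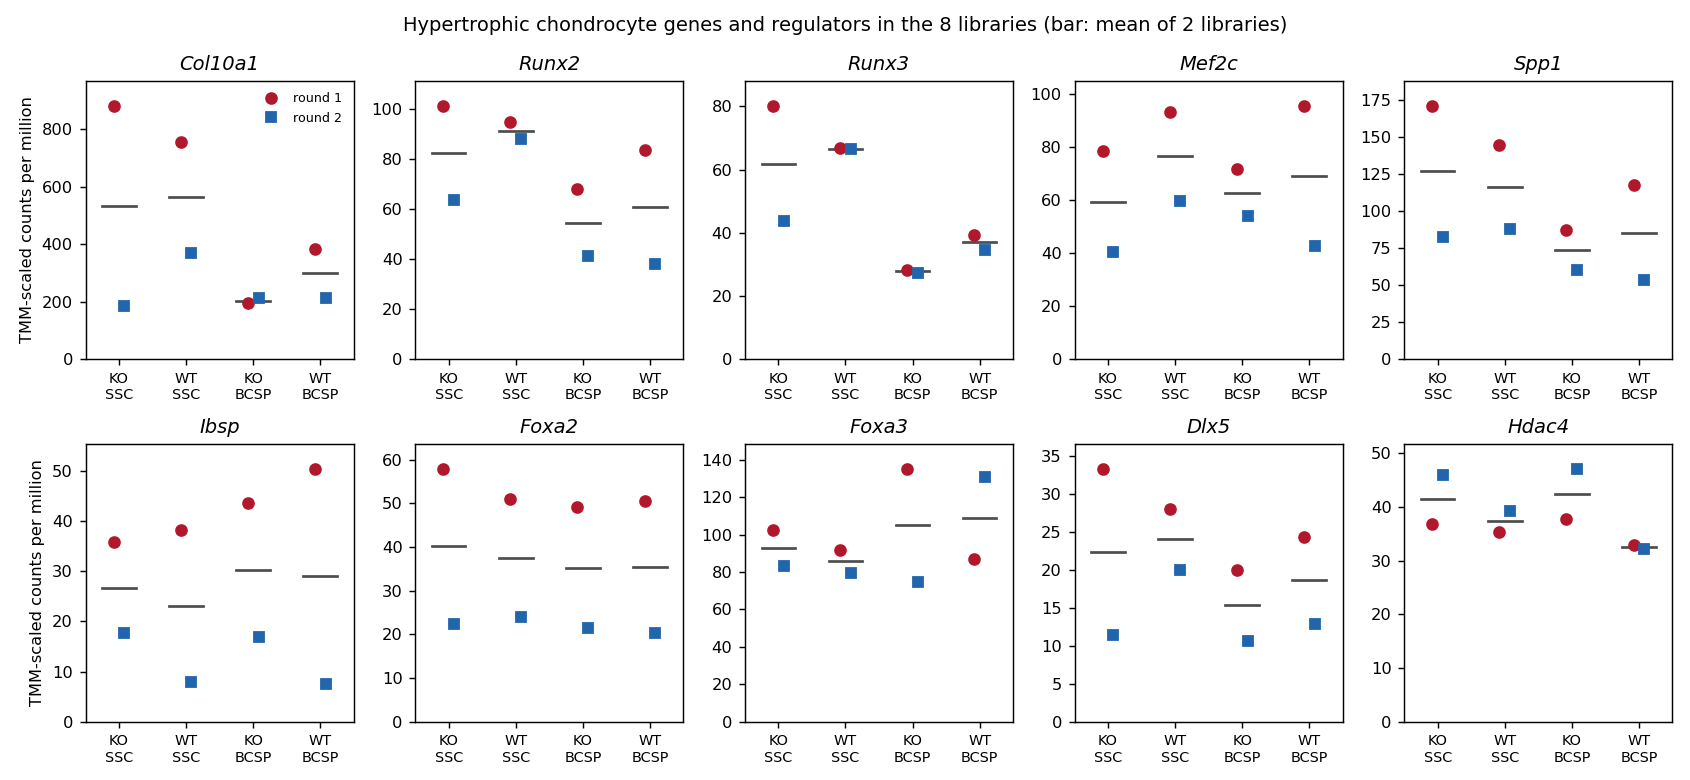
TMM-scaled CPM of the 10 genes (vertical axes, each starting at 0) in the 8 libraries, by group on the horizontal axes. Circles are round 1, squares round 2 and bars the mean of the 2 libraries; for Foxa2 the round 1 libraries sit at 49.2 to 57.9 CPM, above the 20.2 to 23.9 CPM of round 2 in every group.

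The genes varied unequally between libraries. The SD of log2 CPM over the 8 libraries was 1.09 for Ibsp, larger than that of 99.1% of the genes with a mean of at least 1 CPM, and 0.892 for Col10a1, larger than that of 98.0%. It was 0.202 for Hdac4, larger than that of only 23.4%. The ratio of the highest to the lowest library was 6.69 for Ibsp, 4.76 for Col10a1 and 1.46 for Hdac4.

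RUNX and DLX proteins are members of this set, so promoter windows were searched for their motifs. The windows shown, of the runt factor genes and of the matrix genes Spp1 and Col10a1, were taken from those with a match. Each window holds the 250 bases before a start site in RefSeq on GRCm38.p6, the same coordinates as mm10, read 5′ to 3′ on the strand of the gene. Capitals mark the core RUNX motif TGTGGT and the homeobox motif TAATTA, searched on both strands, which do not overlap here.
Runx2, chr17:44814628-44814877, minus strand: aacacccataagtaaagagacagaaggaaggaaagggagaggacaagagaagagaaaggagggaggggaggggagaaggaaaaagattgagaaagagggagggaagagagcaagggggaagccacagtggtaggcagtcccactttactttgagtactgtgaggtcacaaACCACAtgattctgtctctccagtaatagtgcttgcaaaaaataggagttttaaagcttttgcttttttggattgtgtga
Runx3, chr4:135120395-135120644, plus strand: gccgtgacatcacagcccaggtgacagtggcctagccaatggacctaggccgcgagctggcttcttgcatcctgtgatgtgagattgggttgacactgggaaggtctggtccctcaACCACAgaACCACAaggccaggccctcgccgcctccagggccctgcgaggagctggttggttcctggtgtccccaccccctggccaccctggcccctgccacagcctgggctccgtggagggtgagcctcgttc
Spp1, chr5:104434861-104435110, plus strand: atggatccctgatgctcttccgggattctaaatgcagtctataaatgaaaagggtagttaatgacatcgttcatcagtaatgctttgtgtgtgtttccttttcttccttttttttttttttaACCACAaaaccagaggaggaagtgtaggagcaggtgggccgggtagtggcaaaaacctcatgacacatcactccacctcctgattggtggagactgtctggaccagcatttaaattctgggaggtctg
Col10a1, chr10:34389731-34389980, plus strand: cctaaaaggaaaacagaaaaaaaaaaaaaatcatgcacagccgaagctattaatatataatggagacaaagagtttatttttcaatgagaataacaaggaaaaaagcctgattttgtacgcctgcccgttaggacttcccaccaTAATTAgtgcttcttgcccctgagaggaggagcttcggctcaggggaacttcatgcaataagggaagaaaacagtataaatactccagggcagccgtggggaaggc
The table held 15 windows for 9 of the 10 genes, several genes having more than 1 start. TGTGGT or its complement was in 3 of the 15, those of Runx2, Runx3 and Spp1 printed here, against 14% of the 32851 windows of all genes. TAATTA was in 3 of the 15, the printed Col10a1 window and further windows of Spp1 and Mef2c, against 4.84% of all windows. The forkhead motif TGTTTAC was in 0 of the 15 and in 3.17% of all windows. Every printed window holds a RUNX or homeobox match, while the other Runx3 window and that of Ibsp, also a matrix gene, hold neither. For the printed Runx3 and Spp1 windows, the bases after the start were not found in a GENCODE transcript of the gene, while those of their other windows were. A match describes the letters and is not evidence of binding.

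The design asks first whether loss of Tet1 changed these genes. KO and WT libraries overlapped for all 10 genes. Of all tested genes, 2.13% had all 4 KO libraries above all 4 WT libraries and 2.25% had all 4 below. No member passed for genotype in SSC, in BCSP or over both cell types. By edgeR, 0 of the 10 were called in SSC, where 0.00451% of the 22153 tested genes were, 0 in BCSP, where 0.00451% were, and 0 over both, where 0.0135% were. With the round in the model the 3 counts over all genes were 2, 3 and 28, and the member count stayed at 0 in each. None had an unadjusted p under 0.05 in these comparisons, against 1.2%, 6.19% and 7.91% of all tested genes, and DESeq2 also called 0. The median log2 fold change of the members was 0.01 in SSC, -0.15 in BCSP and -0.10 over both, against 0.01, 0.01 and 0.02 over all tested genes. No member passed for a difference of the KO effect between SSC and BCSP (edgeR 0 of 10 called, 0 with unadjusted p under 0.05, DESeq2 0). Of all tested genes 0% passed for that difference, and 1.27% had an unadjusted p under 0.05.

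The matrix genes had no common direction. Col10a1 stood at 879 and 185 CPM in the KO SSC libraries of rounds 1 and 2, against 754 and 369.8 CPM in WT SSC. In BCSP it stood at 194 and 213 CPM in KO, against 384 and 214 CPM in WT. Its 2 KO SSC libraries thus lay on either side of both WT ones, and the log2 fold change was -0.08 ± 0.67 (SE) in SSC and -0.55 ± 0.67 in BCSP (edgeR adjusted p = 1 and 0.84). Ibsp stood at 35.8 and 17.7 CPM in KO SSC, against 38.2 and 8.02 CPM in WT SSC, and at 43.7 and 16.9 CPM in KO BCSP, against 50.4 and 7.53 CPM in WT BCSP. In round 2 the KO level of Ibsp was therefore higher by 1.14 and 1.16 on the log2 scale in SSC and BCSP, while in round 1 the differences were -0.09 and -0.21. This split of Ibsp by round was noticed in the values and was not tested, and over both cell types its log2 fold change was 0.14 ± 0.79 (edgeR adjusted p = 0.976).

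Of the regulators, Hdac4 was the member whose KO level lay above WT in each of the 4 pairs of the same round and cell type. It stood at 36.9 and 45.9 CPM in KO SSC, against 35.3 and 39.4 CPM in WT SSC, and at 37.8 and 47.1 CPM in KO BCSP, against 32.9 and 32.2 CPM in WT BCSP. The 4 differences ran from 0.06 to 0.55 on the log2 scale, and 10.6% of all tested genes were higher in all 4 pairs. Over both cell types the log2 fold change of Hdac4 was 0.27 ± 0.14 (edgeR adjusted p = 0.648), so it did not pass. Runx3 had -0.26 ± 0.18 and Mef2c -0.25 ± 0.27 over both, each lower in KO in 3 of 4 pairs (edgeR adjusted p = 0.696 and 0.809). Runx2 was at -0.15 ± 0.24, Dlx5 at -0.19 ± 0.34, Foxa2 at 0.05 ± 0.44 and Foxa3 at 0.03 ± 0.20. Foxa3 stood at 103 and 82.9 CPM in KO SSC, against 91.9 and 79.3 CPM in WT SSC. In BCSP it stood at 135 and 74.6 CPM in KO, against 87.1 and 131 CPM in WT, so its high libraries fell in different rounds for the genotypes.

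**Figure D2:**
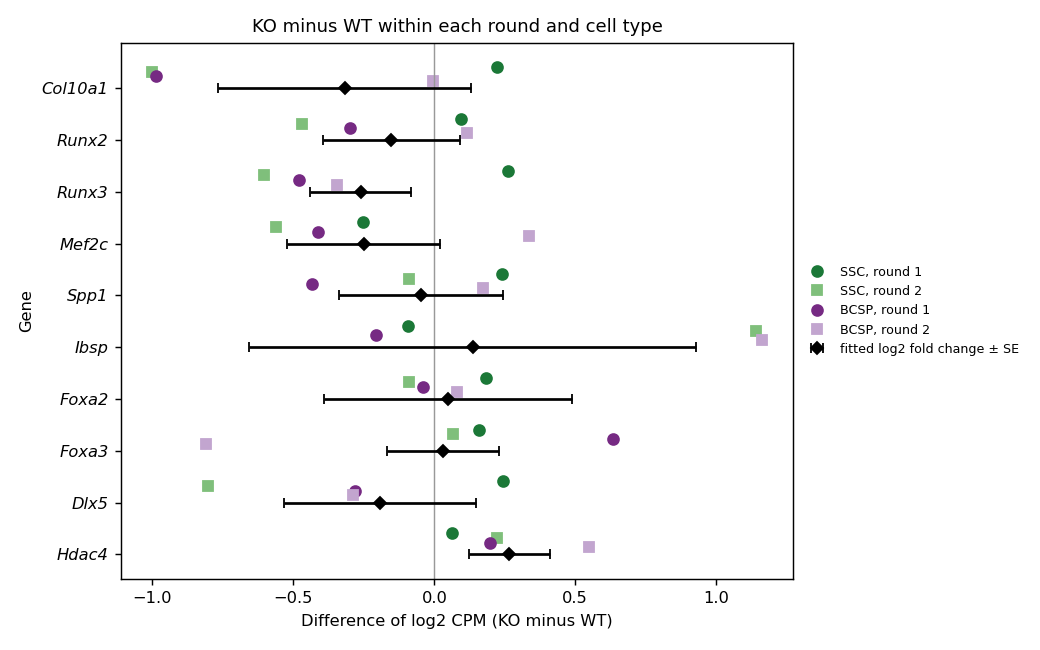
Difference of log2 CPM, KO minus WT (horizontal axis), for each gene (vertical axis) within each round and cell type, with the fitted log2 fold change over both cell types and its SE as black diamonds. The 4 coloured points of Hdac4 lie between 0.06 and 0.55, and those of each of the other 9 genes lie on both sides of 0.

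A further 45 genes of chondrocyte hypertrophy, covering signals, receptors, transcription factors and late matrix genes, were tested in the same fits, and edgeR called 0 of 45 for genotype in SSC, in BCSP and over both. Over both cell types, 10 of the 45 had an unadjusted p under 0.05, against 7.91% of all tested genes, and DESeq2 called 0. Of these 10, Sp7 and Scin were lower in KO and the rest were higher. Without the filter on low counts edgeR called 2 of the 45, both higher in KO, and with the round in the model it called 0. Slc20a1, a phosphate transporter gene, averaged 203 CPM in KO and 132 CPM in WT libraries (0.62 ± 0.19). The growth factor gene Bmp2 averaged 161 and 121 CPM in KO and WT, and Dmp1, a mineral matrix gene, 7.13 and 3.82 CPM. On the lower side, the osteoblast factor gene Sp7 averaged 27.9 CPM in KO and 39.6 CPM in WT (-0.49 ± 0.22). Scin, which encodes the actin-severing protein scinderin, averaged 62.4 CPM in KO and 79.7 CPM in WT, and Bmp7 33.3 and 40.8 CPM. Bmp7 had an unadjusted p of 0.0622 in the edgeR fit and is not among the 10. None of these 6 passed (edgeR adjusted p = 0.596 to 0.637). The genes of the feedback loop did not pass over both either, with Ihh at -0.28 ± 0.34, the receptor gene Pth1r at -0.38 ± 0.27 and Pthlh at 0.05 ± 0.19.

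The summed level of skeletal muscle markers, most of it from Acta1 and Tnnt3, moved with genotype, but the markers did not share a direction. The 8 markers summed to 7.31 to 10.9 CPM in KO libraries and to 11.4 to 25.6 CPM in WT libraries, without overlap, and 5 of the 8 were at 0 in at least 1 library. Acta1, the actin gene of skeletal muscle and the most abundant of them, stood at 3.19 and 4.31 CPM in KO SSC, against 9.07 and 17.5 CPM in WT SSC, and at 1.48 and 3.41 CPM in KO BCSP, against 4.87 and 15.1 CPM in WT BCSP. Its log2 fold change over both cell types was -1.93 ± 0.37 (edgeR adjusted p = 0.217). Tnnt3 was also lower in KO, at -0.68 ± 0.24. The other 3 of the 5 tested markers were higher in KO. These were Ckm at 1.77 ± 1.80, Myh3 at 1.62 ± 2.82 and Myod1 at 1.42 ± 1.34, each with a mean under 1 CPM. DESeq2, the fit without the filter and the fit with the round each called 1 muscle marker lower in KO. The part of muscle cells in the genotype results was not tested.

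SSC and BCSP are successive populations of the skeletal lineage, so the cell types were compared over both genotypes. Runx3 was higher in SSC, with all 4 SSC libraries above all 4 BCSP libraries, but it did not pass over all genes. It stood at 80.01 and 43.8 CPM in KO SSC and 66.8 and 66.5 CPM in WT SSC, against 28.2 and 27.3 CPM in KO BCSP and 39.4 and 34.6 CPM in WT BCSP. The means were 64.3 ± 15.05 CPM in SSC and 32.4 ± 5.71 CPM in BCSP (SD, n = 4 libraries each), and 1.48% of all tested genes lay fully higher in SSC in this way. The log2 fold change of Runx3 was 1.003 ± 0.181, or 2.004-fold, with an unadjusted p of 8.50e-05 from the edgeR fit and an edgeR adjusted p of 0.269. With the round in the model the edgeR adjusted p was 0.0878, and both DESeq2 (adjusted p = 0.000911) and edgeR without the filter (adjusted p = 1.33e-05) called it.

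Col10a1 averaged 547 ± 325 CPM in SSC and 251 ± 88.9 CPM in BCSP, at 1.15 ± 0.45 on the log2 scale (edgeR adjusted p = 1). Without the filter on low counts edgeR called it (adjusted p = 3.99e-06). The other alternatives did not, and without the KO SSC library of round 1 the value was 0.52. Its level was higher in SSC in 3 of the 4 pairs of the same round and genotype, by 2.18 in KO of round 1, by 0.98 in WT of round 1 and by 0.79 in WT of round 2. In KO of round 2 the difference was -0.21. Runx2 was higher in SSC in all 4 pairs, with 86.8 ± 16.4 CPM in SSC and 57.6 ± 21.9 CPM in BCSP, at 0.59 ± 0.24. Spp1 was also higher in all 4 pairs, with 122 ± 43.1 CPM in SSC and 79.4 ± 29.4 CPM in BCSP, at 0.62 ± 0.29. Neither passed (edgeR adjusted p = 1 for both), and the SSC and BCSP libraries of each overlapped. Dlx5 and Foxa2 were higher in SSC in 4 of 4 pairs by smaller amounts, at 0.46 ± 0.34 and 0.13 ± 0.44, and 7.71% of all tested genes were higher in 4 of 4. Mef2c, Hdac4, Ibsp and Foxa3 were at 0.03 ± 0.27, 0.08 ± 0.14, -0.25 ± 0.79 and -0.26 ± 0.20.

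In this comparison edgeR called 0 of the 10 members, where 0.00451% of all tested genes were called, DESeq2 called 1, Runx3, and edgeR without the filter called 2, Runx3 and Col10a1. Of the members, 3 had an unadjusted p under 0.05, against 3.71% of all tested genes, and the median log2 fold change was 0.30, against 0.01 over all tested genes. Among the other 45 hypertrophy genes edgeR called 0, and 7 had an unadjusted p under 0.05. By DESeq2 1 was called and by edgeR without the filter 3, all higher in SSC. Bmp7 averaged 46.6 CPM in SSC and 27.5 CPM in BCSP (0.78 ± 0.17), the hedgehog target gene Gli1 95.6 and 70.7 CPM, and Fgfr3, the receptor gene that restrains growth plate chondrocytes, 521 and 372 CPM. Ihh averaged 81.6 CPM in SSC and 46.9 CPM in BCSP (0.81 ± 0.34). Twist1, Enpp1 and Mef2a had the lowest p-values on the lower side, at -0.29 ± 0.16, -0.27 ± 0.15 and -0.33 ± 0.19. The 10 osteoblast markers summed to 5643 to 7791 CPM in SSC and to 8071 to 10837 CPM in BCSP, most of it from Col1a1 and Col1a2. This sum was lower in SSC, but by log2 fold change 6 of the 10 markers were higher in SSC and 4 lower. Without Col1a1 and Col1a2 the other 8 summed to 32.4 to 72.4 CPM in SSC and to 26.5 to 59.6 CPM in BCSP, which overlap. The part of osteoblasts in the cell type differences was not tested.

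**Figure D3:**
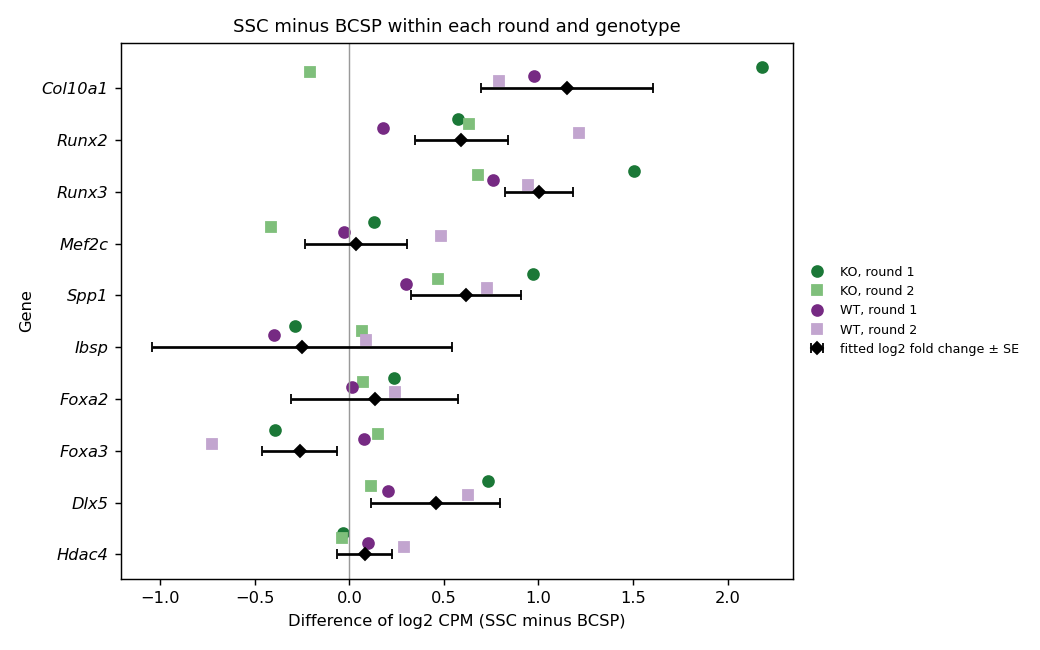
Difference of log2 CPM, SSC minus BCSP (horizontal axis), for each gene (vertical axis) within each round and genotype, with the fitted log2 fold change and its SE as black diamonds. The 4 points of Runx3 lie between 0.682 and 1.503, all above 0.

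More members passed for the round than for genotype or cell type. With group in the model, 5 of the 10 members rose in round 1 relative to round 2 and 0 fell, where 0.664% of all tested genes rose and 1.1% fell, 1.76% in all. These were Foxa2, Ibsp, Spp1, Dlx5 and Mef2c. DESeq2 called 7, adding Col10a1 and Runx2. The median log2 fold change of the members was 0.83, against 0.00 over all tested genes, and 7 of 10 had an unadjusted p under 0.05, against 11.4%. The labels do not say what a round was, and each round holds all 4 groups, so this difference is balanced over genotype and cell type. Hoxd13, a patterning gene of the far end of the limb, stood at 27.2 and 18.6 CPM in KO and WT SSC and at 26.5 and 26.7 CPM in KO and WT BCSP in round 1, against 0.12 and 0.255 CPM in SSC and 0 and 0.349 CPM in BCSP in round 2. Its log2 fold change was 7.21 ± 0.65 (edgeR adjusted p = 0.00244), so a position gene of the limb moved with the round, and its part in the member results was not tested.

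Foxa2 gave the most even difference. It stood at 57.9 CPM in KO SSC of round 1 against 22.5 CPM in round 2, and at 51.0 against 23.9 CPM in WT SSC. In BCSP it stood at 49.2 CPM in KO of round 1 against 21.4 CPM in round 2, and at 50.6 against 20.2 CPM in WT. The log2 differences within the 4 groups ran from 1.09 to 1.36, and the fitted value was 1.24 ± 0.15, or 2.37-fold (edgeR adjusted p = 0.00127). Foxa3, its paralog, did not pass: it was higher in round 1 in 3 of 4 groups and lower by 0.59 in WT BCSP, at 0.20 ± 0.20.

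The late matrix genes rose with it. Ibsp averaged 42.0 ± 6.47 CPM in round 1 and 12.5 ± 5.51 CPM in round 2 (SD, n = 4 libraries each), with no overlap between the rounds. Its log2 fold change was 1.84 ± 0.25, or 3.59-fold (edgeR adjusted p = 0.00217), and the differences within groups were larger in WT, at 2.25 and 2.74, than in KO, at 1.02 and 1.37. Spp1 stood at 171 and 82.8 CPM in rounds 1 and 2 in KO SSC and at 145 and 88.1 CPM in WT SSC. In BCSP it stood at 87.0 and 59.9 CPM in KO and at 118 and 53.1 CPM in WT. Spp1 was thus higher in round 1 in every group, although KO BCSP of round 1 lay below WT SSC of round 2, and the log2 fold change was 0.86 ± 0.16 (edgeR adjusted p = 0.0119). Col10a1, at 0.99 ± 0.28 on the log2 scale, missed the threshold (edgeR adjusted p = 0.11). Within groups its difference was 2.25 in KO SSC, 1.03 in WT SSC and 0.84 in WT BCSP, but -0.14 in KO BCSP.

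Among the factors, Dlx5 averaged 26.5 ± 5.63 CPM in round 1 and 13.8 ± 4.29 CPM in round 2, at 0.96 ± 0.18 (edgeR adjusted p = 0.0153). Its lowest round 1 library, KO BCSP at 20.1 CPM, was next to its highest round 2 library, WT SSC at 20.0 CPM. Mef2c averaged 84.7 ± 11.5 CPM in round 1 and 49.2 ± 9.13 CPM in round 2, with no overlap, at 0.79 ± 0.16 (edgeR adjusted p = 0.0221). Runx2 was higher in round 1 in every group, by 0.10 in WT SSC and by 0.67 to 1.14 in the other 3, at 0.66 ± 0.17 (edgeR adjusted p = 0.0772). Runx3 was at 0.28 ± 0.17, most of it from KO SSC, where the difference was 0.87, against 0.00 to 0.19 in the other groups. Hdac4 was at -0.19 ± 0.15, with 3 of 4 groups lower in round 1. For 4 members, Ibsp, Foxa2, Dlx5 and Mef2c, every round 1 library lay above every round 2 library, as it did for 3.61% of all tested genes. Without either KO SSC library the calls on Mef2c and Dlx5 were lost. When each library was left out in turn, the log2 fold change ran from 0.66 to 0.93 for Mef2c and from 0.77 to 1.13 for Dlx5.

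**Figure D4:**
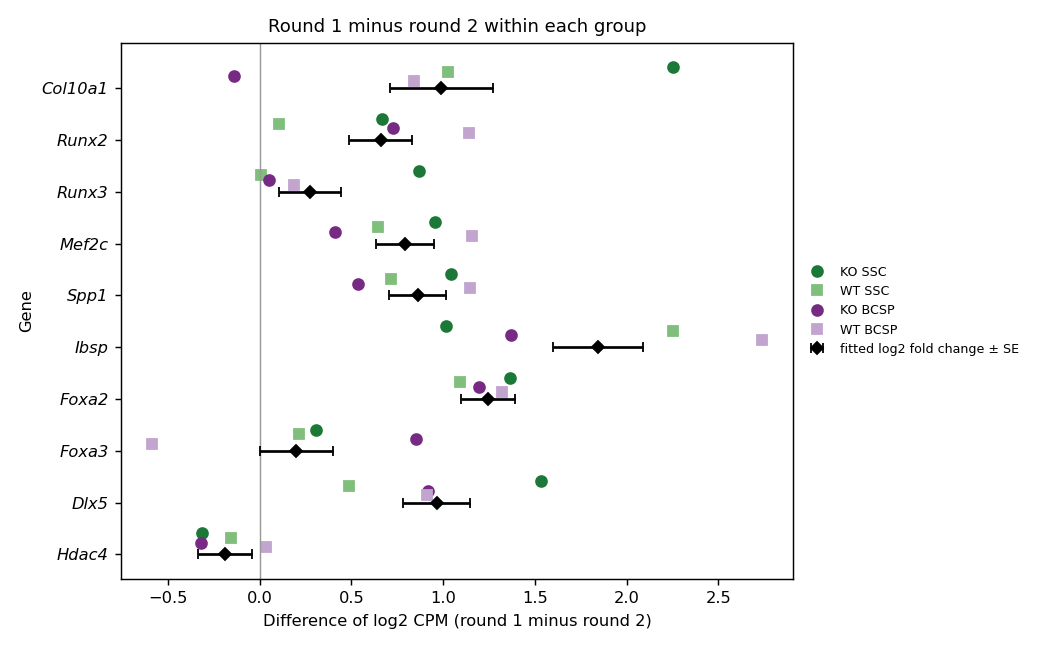
Difference of log2 CPM, round 1 minus round 2 (horizontal axis), for each gene (vertical axis) within each of the 4 groups, with the fitted log2 fold change and its SE as black diamonds. The 4 points of Foxa2 lie between 1.09 and 1.36, while those of Ibsp spread from 1.02 to 2.74.

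Of the other 45 hypertrophy genes, 5 rose in round 1 and 2 fell by edgeR, where 0.664% of all tested genes rose and 1.1% fell. Their median log2 fold change was 0.01. DESeq2 called 11 higher and 2 lower, and edgeR without the filter 12 higher and 2 lower. Both settings also called more of all genes than the main fit. Phex, which encodes a peptidase of phosphate balance, averaged 5.98 CPM in round 1 and 1.83 CPM in round 2 (1.77 ± 0.28), and Alpl, the gene of tissue-nonspecific alkaline phosphatase, 83.9 and 43.0 CPM (0.97 ± 0.16). Mmp13, the collagenase gene of the lowest hypertrophic cells, averaged 13.6 CPM in round 1 and 6.81 CPM in round 2 (1.05 ± 0.20). The surface protein gene Cd200 averaged 56.9 and 29.9 CPM and the homeobox gene Nkx3-2, a repressor of Runx2, 29.0 and 17.4 CPM. The genes that fell in round 1 were Runx1, at 61.5 CPM in round 1 and 107 CPM in round 2, and the angiogenic factor gene Vegfa, at 149.9 and 238 CPM. Gli2, the next on the lower side, averaged 57.3 CPM in round 1 and 79.6 CPM in round 2 and did not pass. Ihh and Pth1r were at 0.77 ± 0.23 and 0.74 ± 0.18 (edgeR adjusted p = 0.139 and 0.0607), and Pthlh was at 0.01 ± 0.19.

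Spp1 and Ibsp are also osteoblast genes, and other osteoblast markers moved with the round. Of the 10 osteoblast markers, 4 rose in round 1 by edgeR (Bglap, Bglap2, Phex and Mepe) and 0 fell, where 0.664% of all tested genes rose and 1.1% fell. These 4 were low, with means of 1.46, 1.86, 3.91 and 1.19 CPM over the 8 libraries. Phex is also among the 45 hypertrophy genes and was counted there too. Col1a1 and Col1a2 were at 0.05 ± 0.17 and -0.05 ± 0.17. DESeq2 called 6 of the 10 and edgeR without the filter 7, all higher in round 1. Without these collagens the other 8 markers summed to 52.7 to 72.4 CPM in round 1 and to 26.5 to 49.6 CPM in round 2, and none was at 0 in any library. The largest of these 8 was Sp7, with a mean of 33.8 CPM, which did not pass (0.61 ± 0.17, edgeR adjusted p = 0.0936). Ifitm5 was at -0.07 ± 0.69. The 10 osteoclast and macrophage markers summed to 51.3 to 74.3 CPM in round 1 and to 42.9 to 69.9 CPM in round 2, with 1 called, Tyrobp, and 3 of the 10 at 0 in at least 1 library. The 10 lymphoid markers summed to at most 1.19 CPM and the 8 endothelial markers to at most 4.02 CPM. The 8 muscle markers summed to 7.31 to 19.7 CPM in round 1 and to 8.47 to 25.6 CPM in round 2, and Acta1 fell in round 1 (-1.06 ± 0.21, edgeR adjusted p = 0.0221), with 2 muscle markers called lower by DESeq2 and 2 by edgeR without the filter. The part of osteoblasts or muscle cells in the round results was not tested, and fewer cells of a type cannot be told apart from less RNA per cell in bulk samples.

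By position, Ibsp (chr5:104299171-104311469 in mm10) and Spp1 (chr5:104435118-104441050) lie 123648 bases apart on the plus strand of chromosome 5, in the cluster of secreted phosphoprotein genes that also holds Dspp, Dmp1 and Mepe. These neighbours were looked at after their values were seen. Mepe, which lies between Ibsp and Spp1, had 1.21, 2.93, 1.99 and 1.77 CPM in round 1 in KO SSC, WT SSC, KO BCSP and WT BCSP, against 0.849, 0.332, 0.378 and 0.0349 CPM in round 2 (2.74 ± 0.64, edgeR adjusted p = 0.0452). Dmp1 was at 0.78 ± 0.28 and did not pass (edgeR adjusted p = 0.25), and Dspp had 14 counts in all 8 libraries together, under the filter. The remaining members lie apart: Col10a1 on chromosome 10 (chr10:34389981-34397085), Foxa2 on chromosome 2 (chr2:148042877-148046969) and Mef2c on chromosome 13 (chr13:83504034-83667080).

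Across the 8 libraries the members fell into unlike patterns. As a description over 8 libraries that share groups, rounds and depth, log2 CPM of Runx2 and Spp1 had a Pearson r of 0.92, Mef2c and Foxa2 0.90, Ibsp and Foxa2 0.89 and Col10a1 and Runx3 0.85. Ibsp and Runx3 had 0.04, and Foxa3 had at most 0.26 with any other member. Hdac4 was negative with all 9 others, from -0.58 with Foxa3 to -0.18 with Ibsp. Among 12638 genes with a mean of at least 1 CPM, those most like Col10a1 were Adgrb1 (0.98), Sptlc2 (0.97) and Irx5 (0.97), and those most like Ibsp were Bglap2, Tspan2 and Irx1 (0.97 each). Spp1 was most like Yipf6 (0.97), Nkap (0.96) and Fra10ac1 (0.96), and Mef2c most like Ttk (0.98), Sema3d (0.97) and Atad1 (0.97). With so many candidates and 8 libraries such values name the nearest patterns only.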

How the data were processed

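The deposited table holds whole-number counts of reads per gene, which the authors made with reads aligned to mm10; STAR, featureCounts and DESeq2 are named in the submitters' processing notes, with no versions. The table's own name points to another counter, and nothing read here states whether strand was used. Its columns spell the cell types SCC and BCP, read as SSC and BCSP.

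From these counts, genes were filtered with filterByExpr (minimum count 10, minimum total 15), leaving 22153. TMM scaling and edgeR 4.0.16 quasi-likelihood tests (R 4.3.3) used all 8 libraries: group means for KO against WT in each cell type and their difference, cell type plus genotype for the effects over both, and group plus round for the rounds. Residual degrees of freedom were 4, 5 and 3. P-values were adjusted by Benjamini-Hochberg over all tested genes, with a threshold of 0.05. The SE is the log2 fold change divided by the square root of F. TPM used summed exon lengths of GENCODE M21, matched by gene ID for 55230 genes. Tests were checked on simulated counts with less spread than these libraries, whose common biological coefficient of variation was 0.525. Recovery of changes at that spread was not checked.

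The members and lists were chosen with earlier results of these data known. Named genes were all members, every other hypertrophy gene that passed, the 3 with the lowest p in each direction over both cell types, between cell types and between rounds, and Ihh, Pth1r and Pthlh. Same-numbered libraries share a round by their titles. Round differences correlated between groups across 12639 genes at 0.0590 to 0.645. The pairs with WT BCSP were the lowest, at 0.0590 to 0.273, against 0.559 to 0.645 among the other groups. DESeq2 1.42.0, other size factors, no filter, the round as a block and leaving out libraries were the alternatives.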

Additional observations from a re-analysis of the deposited data

How the results depend on the processing

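With 2 libraries a group, a common biological coefficient of variation of 0.525 and 3 to 5 residual degrees of freedom, the counts of called genes moved with the setting, and the cause was not tested. Without the filter the calls over all genes were 4 in SSC and 38 in BCSP for KO against WT, 234 over both cell types, 66 between cell types and 861 between rounds. DESeq2 gave 9, 20, 103, 39 and 937 in the same order. With the replicate block for the round they were 2 in SSC, 3 in BCSP, 2 for the difference of the KO effect, 28 over both and 2 between cell types. Leaving out both BCSP libraries of round 2 gave 11 over both, 36 between cell types and 1856 between rounds. Leaving out each library in turn gave 1 to 4 calls in SSC, 1 to 2 in BCSP, 0 for the difference, 1 to 12 over both, 1 to 3 between cell types and 275 to 3909 between rounds, the highest without a WT BCSP library.

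Of the member values under alternatives, 645 kept direction and side of the threshold, 19 passed anew, 4 no longer passed and 102 reversed. Leaving out both BCSP libraries of round 2, the log2 fold change in BCSP was -0.20 for Ibsp and 0.64 for Foxa3, the difference of the KO effect was 0.0433 for Mef2c and -0.52 for Foxa3, and SSC against BCSP was -0.30 for Mef2c and -0.37 for Foxa2. Foxa2 in BCSP was 0.016 with other size factors, 0.015 by DESeq2 and 0.019 with the replicate block. The difference for Runx2 was -0.0267 with other size factors, -0.0265 by DESeq2 and -0.10 with the replicate block.

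Values that crossed 0 when a library was left out are given as ranges of log2 fold change. For KO against WT in SSC they were -1.61 to 0.63 for Col10a1, -0.53 to 0.13 for Runx2, -0.61 to 0.25 for Runx3, -0.93 to 0.0199 for Mef2c, -0.50 to 0.54 for Spp1, -0.51 to 1.74 for Ibsp, -0.74 to 0.75 for Foxa2, -0.0517 to 0.25 for Foxa3, -1.07 to 0.45 for Dlx5 and -0.0325 to 0.29 for Hdac4. In BCSP they were -0.61 to 0.53 for Runx2, -0.60 to 0.56 for Mef2c, -0.68 to 0.47 for Spp1, -0.78 to 2.01 for Ibsp, -0.72 to 0.80 for Foxa2, -0.53 to 0.35 for Foxa3 and -0.81 to 0.25 for Dlx5. For the difference of the KO effect they were -1.06 to 1.17 for Col10a1, -0.68 to 0.46 for Runx2, -0.20 to 0.64 for Runx3, -0.93 to 0.24 for Mef2c, -0.35 to 0.80 for Spp1, -1.80 to 1.67 for Ibsp, -0.75 to 0.81 for Foxa2, -0.24 to 0.63 for Foxa3 and -0.80 to 0.72 for Dlx5. Over both cell types they were -0.34 to 0.11 for Runx2, -0.32 to 0.26 for Spp1, -0.18 to 0.86 for Ibsp, -0.28 to 0.37 for Foxa2, -0.14 to 0.20 for Foxa3 and -0.58 to 0.0319 for Dlx5. Between cell types they were -0.18 to 0.27 for Mef2c, -0.79 to 0.47 for Ibsp and -0.20 to 0.46 for Foxa2, and between rounds -0.0122 to 0.46 for Foxa3.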
